A study of Mus musculus with 8 samples.

Results

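The 10 genes described here encode proteins that break down the branched-chain amino acids leucine, isoleucine and valine, or that control this breakdown. They were chosen by gene symbol, as Bcat2, Bckdha, Bckdhb, Dbt, Bckdk, Ppm1k, Ivd, Mccc1, Mccc2 and Klf15. All 10 had values among the 14569 genes measured, through 42 of 33027 transcripts, and all 10 were among the 13776 genes that passed the filter on low values. RNA of the left ventricle of the heart was sequenced in 8 libraries from mice of 6 months on a C57 background. There were 3 libraries of mdx sln+/- mice, 3 of mdx mice and 2 of wild-type (WT) mice. mdx mice carry a mutation of Dmd and lack dystrophin, the protein that links the muscle cell skeleton to its membrane, and the labels call them a heart failure model. mdx sln+/- mice carry the mdx mutation and have lost 1 copy of Sln, so that only 1 functional copy is left. Sln encodes sarcolipin, an inhibitor of the calcium pump of the sarcoplasmic reticulum. The labels give each library a number of its own without saying whether it stands for an animal, so a p-value here covers variation among libraries, which may be technical.

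Branched-chain amino acids are broken down inside mitochondria. The aminotransferase BCAT2 first turns them into branched-chain keto acids, and the branched-chain keto acid dehydrogenase (BCKDH) complex then commits these to oxidation. A kinase, BCKDK, switches the complex off by phosphorylating its E1 alpha subunit, and a phosphatase, PPM1K, switches it back on. The leucine branch runs on through IVD and the biotin enzyme methylcrotonyl-CoA carboxylase, and KLF15 is a transcription factor that promotes this breakdown programme in heart and skeletal muscle.

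The 250 bases before the annotated start are shown for Klf15, which differed most between mdx and WT, and for Mccc2, the other gene of the 10 with the same motif there. Both sequences are those of RefSeq on GRCm38.p6, printed 5′ to 3′ on the strand of the gene. Klf15 lies at chr6:90462326-90462575 on the plus strand and Mccc2 at chr13:100015640-100015889 on the minus strand. Capitals mark CACGTG, the E-box that the clock proteins CLOCK and BMAL1, among other factors, can bind; it reads the same on both strands. The Klf15 window ends just before the start of the transcript Klf15-201 at 90462576. Klf15-202 and Klf15-204 start at 90465304 and 90466400, inside the gene, so the window is not directly upstream of them.
Klf15: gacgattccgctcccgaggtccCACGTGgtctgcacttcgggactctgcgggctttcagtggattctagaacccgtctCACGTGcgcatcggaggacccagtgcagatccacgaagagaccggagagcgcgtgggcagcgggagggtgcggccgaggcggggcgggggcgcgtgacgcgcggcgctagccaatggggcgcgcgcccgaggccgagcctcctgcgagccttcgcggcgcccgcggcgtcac
Mccc2: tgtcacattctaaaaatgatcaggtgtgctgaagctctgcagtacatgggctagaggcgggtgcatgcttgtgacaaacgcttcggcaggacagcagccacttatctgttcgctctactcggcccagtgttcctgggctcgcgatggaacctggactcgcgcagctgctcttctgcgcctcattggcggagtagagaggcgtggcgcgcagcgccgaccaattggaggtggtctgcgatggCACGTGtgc
The Klf15 matches begin 228 and 172 bases before the start, and the Mccc2 match begins 9 bases before it. A promoter entry was matched for 9 of the 10 genes, with 11 promoters in all, and the other 7 matched genes held no CACGTG in this window. Of all 32851 promoters, 6.02% held at least 1 match and 0.429% held 2 or more. A match is a description of letters and not a binding site, and no binding was measured.

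Values are log2(value + 1), where the value is the authors' normalized abundance summed over the transcripts of a gene. Whether the authors divided by length is not given, so levels are compared between libraries and not between genes. No counts were used, so the depth behind a value is unknown; the abundances of a library summed to between 780262 and 924253, lowest in mdx 1. Each library had 2 value columns, r1 and r2, that correlated at 0.981 to 0.987 and were averaged. A fold change below is a log2 difference with its limma standard error after ±. Dmd, the mutated gene, was 4.09 to 4.25 in mdx sln+/- libraries, 4.22 to 4.32 in mdx libraries and 6.60 and 6.98 in WT libraries, as the labels imply. Sln was not analysed here. Y-linked genes differed within groups: Eif2s3y was 1.31 to 4.14 in mdx sln+/-, 4.01 to 5.91 in mdx, and 6.11 in WT 1 against 0.92 in WT 2. The labels give no sex, and its part in any result below was not tested. In every transcript the mean of mdx sln+/- 2 and mdx 2 equals that of the other 4 libraries of those genotypes to within 5.13e-05, so a term with this contrast was removed before deposit; the fit holds that term.

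None of the 10 genes passed the threshold, a limma adjusted p under 0.05, in any comparison. Between mdx and WT the count was 0 of 10, where 15.1% of all genes tested passed. Between mdx sln+/- and WT it was also 0 of 10, where 15.9% passed, and between mdx sln+/- and mdx it was 0 of 10, where 0% passed. The smallest adjusted p of any gene in that last comparison was 0.477 (limma). At an unadjusted limma p under 0.05 the count was 1 of 10, Klf15, between mdx and WT (background 32.4%). It was 0 of 10 between mdx sln+/- and WT (background 33.7%) and 1 of 10, Bckdhb, between mdx sln+/- and mdx (background 8.62%). The counts against WT lie below their backgrounds, and the last lies near its own. Both comparisons with WT share the same 2 WT libraries. In these bulk samples, fewer cells of a type and less RNA per cell cannot be told apart.

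**Figure D1:**
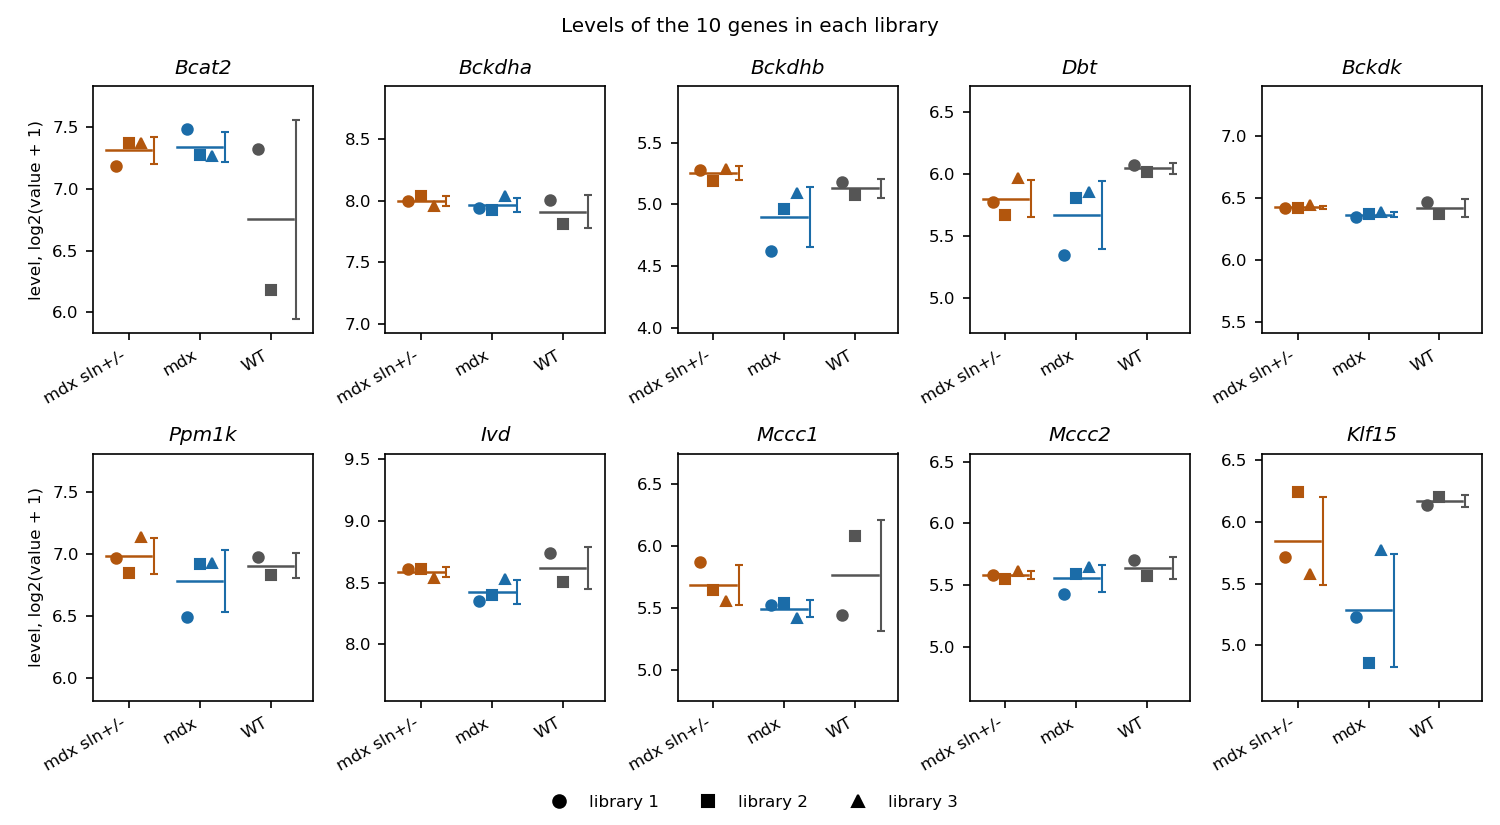
Level of each of the 10 genes, as log2(value + 1), in each library of mdx sln+/- (n = 3), mdx (n = 3) and WT (n = 2). Symbols give the library number, lines the group mean and bars beside them 1 SD; every panel spans 2 log2 units. Klf15 and Dbt lie lower in all mdx libraries than in both WT libraries, and Bcat2 in WT 2 (6.18) lies apart from the other 7 libraries.

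Bcat2 encodes the mitochondrial branched-chain aminotransferase, the first step, and lies on chromosome 7 from 45570153 to 45589711, plus strand (positions, here and below, are those of GENCODE M21 on GRCm38/mm10 and counted from 1). Its level was 7.19, 7.38 and 7.37 in mdx sln+/- 1, 2 and 3, 7.48, 7.27 and 7.27 in mdx 1, 2 and 3, and 7.32 and 6.18 in WT 1 and WT 2. WT 2 alone was low, and WT 1 lay within the range of both mdx groups. The difference was 0.59 ± 0.30 in mdx against WT (limma, adjusted p = 0.223) and 0.56 ± 0.30 in mdx sln+/- against WT (limma, adjusted p = 0.236). Both differences rest on WT 2. Without WT 2 they were 0.02 and -0.01, and without WT 1 they were 1.16 and 1.13 and passed the threshold (limma, adjusted p = 0.0111 and 0.0112), where 10.8% and 12.2% of all genes passed. Between mdx sln+/- and mdx Bcat2 differed by -0.03, with a 95% interval of -0.63 to 0.57. Bcat2 overlaps 0610005C13Rik on the other strand, which had values too, and the sources used here do not say whether reads were counted by strand.

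Bcat2 was measured through 7 annotated transcripts, of which the protein-coding Bcat2-202 held 73.5% of the summed abundance. Bcat2-202 was 6.75, 6.92 and 6.89 in mdx sln+/-, 7.07, 6.83 and 6.80 in mdx, and 6.89 and 5.81 in WT, with WT 2 low again. Bcat2-203, which held 0.52%, ran the other way, with 0.65, 0.39 and 0.69 in mdx sln+/-, 0.52, 0.66 and 0.25 in mdx, and 1.15 and 1.71 in WT. This minor transcript was therefore highest in WT 2, the library in which the gene as a whole was lowest. In a fit over 29021 transcripts, chosen after the data were seen, Bcat2-203 fell by 0.95 in mdx against WT (limma, adjusted p = 0.0409) and by 0.85 in mdx sln+/- against WT (limma, adjusted p = 0.0491). It starts at 45570996, inside the gene, and shares exons with the larger transcripts, so how reads were split among them is uncertain. Its call in mdx ended without mdx 1, mdx 3, mdx sln+/- 1 or mdx sln+/- 3 (limma, adjusted p = 0.0632 to 0.106), and that in mdx sln+/- without any library of either mdx group (limma, adjusted p = 0.0567 to 0.161). Its value before the log was 1.21 and 2.26 in WT and 0.19 to 0.62 in all libraries of both mdx groups. It therefore passed the filter on low values only through WT, the group where it was high. A fall was built into that choice, so these calls carry no weight as evidence of one. Without either WT library it did not pass the filter.

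Bckdha, Bckdhb and Dbt encode the E1 alpha, E1 beta and E2 subunits of the BCKDH complex. Bckdha, on chromosome 7 from 25629946 to 25658981 (minus strand), was the steadiest of them. It was 7.998, 8.04 and 7.96 in mdx sln+/-, 7.94, 7.92 and 8.03 in mdx, and 8.003 and 7.81 in WT. The groups overlapped, and the differences were 0.09 ± 0.08 in mdx sln+/- against WT, 0.06 ± 0.08 in mdx against WT and 0.03 ± 0.07 in mdx sln+/- against mdx. Bckdha overlaps B3gnt8, a measured gene on the other strand.

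Bckdhb, on chromosome 9 from 83925145 to 84124240 (plus strand), was 5.28, 5.19 and 5.29 in mdx sln+/-, 4.63, 4.97 and 5.10 in mdx, and 5.18 and 5.08 in WT. All mdx sln+/- libraries lay above all mdx libraries and, by a smaller margin, above both WT libraries. The difference between mdx sln+/- and mdx was 0.36 ± 0.12, with a 95% interval of 0.07 to 0.64 before adjustment (limma, adjusted p = 0.578). Between mdx and WT it was -0.23 ± 0.14 (limma, adjusted p = 0.293), with mdx 1 the lowest library. The r1 and r2 columns of 1 library differed by at most 0.20 for Bckdhb.

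Dbt, on chromosome 3 from 116513070 to 116549981 (plus strand), was 5.77, 5.67 and 5.96 in mdx sln+/-, 5.35, 5.80 and 5.85 in mdx, and 6.08 and 6.01 in WT. Every library of both mdx groups lay below both WT libraries. The difference was -0.38 ± 0.17 in mdx against WT (limma, adjusted p = 0.171) and -0.24 ± 0.17 in mdx sln+/- against WT (limma, adjusted p = 0.346). Dbt stayed below WT in each of the 21 alternative settings tried and passed the threshold in none of them, with an adjusted p (limma) of at least 0.101 between mdx and WT. Dbt overlaps Gm4596 on the other strand, which had values. The E3 subunit Dld, which other dehydrogenase complexes also use, differed by -0.16 ± 0.13 in mdx against WT and -0.10 ± 0.13 in mdx sln+/- against WT.

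Neither gene of the pair that switches the complex passed in any comparison. The kinase Bckdk, on chromosome 7 from 127904082 to 127910221 (plus strand), was 6.42, 6.42 and 6.44 in mdx sln+/-, 6.35, 6.37 and 6.39 in mdx, and 6.47 and 6.37 in WT. The mdx sln+/- libraries lay above the mdx libraries, by 0.06 ± 0.06 (limma, adjusted p = 0.769), and WT overlapped both. Over its 3 differences, the lowest bound of a 95% interval was -0.20 and the highest 0.19.

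The phosphatase Ppm1k, on chromosome 6 from 57506502 to 57535468 (minus strand), was 6.97, 6.84 and 7.14 in mdx sln+/-, 6.49, 6.92 and 6.93 in mdx, and 6.98 and 6.83 in WT. mdx 1 was low and the other 7 libraries overlapped. The log2 difference of Bckdk minus Ppm1k, kinase against phosphatase within a library, was -0.55, -0.42 and -0.69 in mdx sln+/-, -0.15, -0.55 and -0.54 in mdx, and -0.51 and -0.46 in WT. mdx 1 was again the library that stood apart, and the other libraries of the 3 genotypes overlapped.

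In the leucine branch, Ivd encodes isovaleryl-CoA dehydrogenase and lies on chromosome 2 from 118861954 to 118882909 (plus strand). Its level was 8.61, 8.61 and 8.54 in mdx sln+/-, 8.35, 8.40 and 8.53 in mdx, and 8.74 and 8.50 in WT. The mdx sln+/- libraries lay above the mdx libraries by 0.16 ± 0.09 (limma, adjusted p = 0.630), while WT overlapped both groups. The difference between mdx and WT was -0.19 ± 0.10 (limma, adjusted p = 0.227).

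Mccc1 and Mccc2 encode the alpha and beta subunits of methylcrotonyl-CoA carboxylase. Mccc1, on chromosome 3 from 35959312 to 36000678 (minus strand), was 5.87, 5.64 and 5.55 in mdx sln+/-, 5.53, 5.54 and 5.42 in mdx, and 5.44 and 6.08 in WT. WT 2 was the highest of all 8 libraries and WT 1 lay within the mdx range, so no difference against WT exceeded the gap between the 2 WT libraries. Mccc2, on chromosome 13 from 99948530 to 100015639 (minus strand), was 5.59, 5.55 and 5.62 in mdx sln+/-, 5.43, 5.59 and 5.65 in mdx, and 5.70 and 5.57 in WT. Its groups overlapped and its differences were -0.05 ± 0.09 in mdx sln+/- against WT, -0.08 ± 0.09 in mdx against WT and 0.03 ± 0.08 in mdx sln+/- against mdx. The subunits of 1 enzyme thus had unlike profiles, with WT 2 the highest library for Mccc1 and not for Mccc2.

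**Figure D2:**
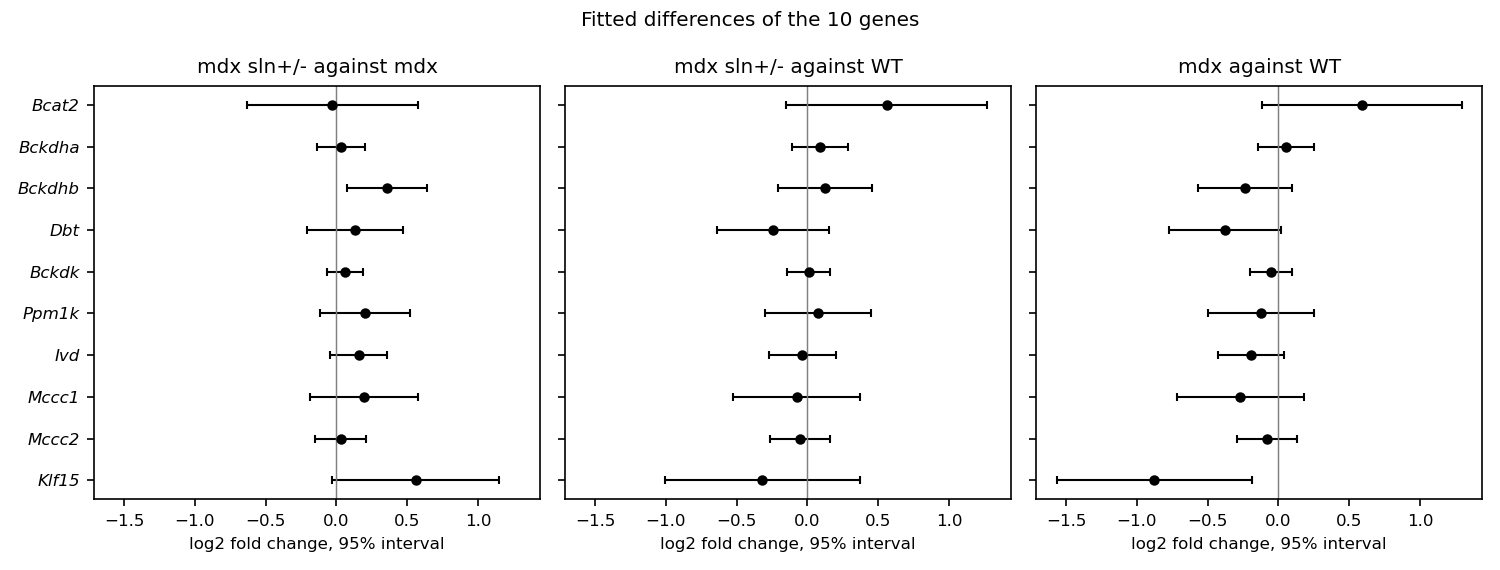
Fitted log2 fold change of the 10 genes (points) with its unadjusted 95% interval (bars) in mdx sln+/- against mdx, mdx sln+/- against WT and mdx against WT. The intervals of Bckdhb in the left panel (0.07 to 0.64) and of Klf15 in the right panel (-1.57 to -0.19) leave out 0, and those of Bcat2 and Klf15 are the widest.

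Klf15, on chromosome 6 from 90462576 to 90475238 (plus strand), encodes the Krüppel-like transcription factor of the programme and differed most between mdx and WT. Its level was 5.71, 6.24 and 5.57 in mdx sln+/- 1, 2 and 3, 5.23, 4.86 and 5.77 in mdx 1, 2 and 3, and 6.14 and 6.20 in WT 1 and WT 2. All mdx libraries lay below both WT libraries, mdx sln+/- 2 lay above both, and mdx 3 overlapped the mdx sln+/- group. The mean (± SD) was 5.84 ± 0.35 over the 3 mdx sln+/- libraries, 5.29 ± 0.46 over the 3 mdx libraries and 6.17 ± 0.05 over the 2 WT libraries.

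Klf15 differed by -0.88 ± 0.29 in mdx against WT, with a 95% interval of -1.57 to -0.19 and an unadjusted p of 0.019 (limma), and the adjusted p was 0.0878. Between mdx sln+/- and WT it differed by -0.32 ± 0.29 (limma, adjusted p = 0.478), and between mdx sln+/- and mdx by 0.56 ± 0.25, interval -0.03 to 1.15 (limma, adjusted p = 0.591). Without mdx 3 the difference between mdx and WT was -1.22 and passed (limma, adjusted p = 0.0327), where 11.4% of all genes did. It also passed with the removed term not fitted (limma, adjusted p = 0.0433), where 27.6% of all genes passed and p-values are too small, and with the highest transcript in place of the sum (-0.98; limma, adjusted p = 0.0491), where 12.4% passed. With mdx sln+/- and WT fitted alone, which drops mdx sln+/- 2, the library that was highest, their difference was -0.52 and passed (limma, adjusted p = 0.0214; background 14.9%).

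Klf15 was measured through 5 annotated transcripts that share exons and differ in where they start. Klf15-204, which starts at 90466400, held 60.9% of the summed abundance. It was 5.06, 5.52 and 5.03 in mdx sln+/-, 4.35, 4.19 and 4.98 in mdx, and 5.51 and 5.46 in WT. All mdx libraries lay below every other library, and mdx sln+/- 2 lay above both WT libraries. Its difference was -0.98 ± 0.25 in mdx against WT (limma, adjusted p = 0.0552) and 0.69 ± 0.22 in mdx sln+/- against mdx (limma, adjusted p = 0.465).

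Klf15-202, which starts at 90465304, held 7.35% of the summed abundance. It was 1.82, 2.22 and 1.98 in mdx sln+/-, 1.60, 1.66 and 2.37 in mdx, and 3.06 and 3.00 in WT. Here every library of both mdx groups lay below both WT libraries, by 1.16 ± 0.26 in mdx (limma, adjusted p = 0.0376) and 1.03 ± 0.26 in mdx sln+/- (limma, adjusted p = 0.0450), and the mdx groups overlapped. Klf15-203, which starts at 90462674, held 3.97%. It was 1.65, 1.72 and 1.48 in mdx sln+/-, 0.96, 1.13 and 1.61 in mdx, and 2.06 and 2.20 in WT. Klf15-203 fell by 0.90 ± 0.22 in mdx against WT (limma, adjusted p = 0.0443). Before the log it was 0.94 to 2.05 in mdx, near the filter value of 1. Both calls thus concern minor transcripts. Klf15-201 and Klf15-205 overlapped between all groups, and their limma adjusted p was 0.586 and 0.577 between mdx and WT.

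At the transcript level, 3 of the 40 tested transcripts of the 10 genes fell in mdx against WT, where 8.29% of all transcripts passed. In mdx sln+/- against WT 2 of 40 fell, where 10.1% passed, and in mdx sln+/- against mdx the count was 0, where 0% passed. Both counts against WT include Bcat2-203, which passed the filter on low values only through WT. These calls were not robust to the choice of libraries: with 1 library left out the falls numbered 0 to 3 in mdx and 0 to 1 in mdx sln+/-, and 0 in both comparisons without WT 2, without mdx sln+/- 1 and without mdx sln+/- 3. Without WT 1 the calls were mostly rises, with 5 higher and 0 lower in mdx sln+/- and 4 higher and 1 lower in mdx against WT. In mdx against WT, Klf15-202 and Klf15-203 passed without mdx 3 (limma, adjusted p = 0.0142 and 0.0220) and not without any other single library (limma, adjusted p = 0.0567 to 0.165). In mdx sln+/- against WT, Klf15-202 passed without mdx 2, mdx 3 or mdx sln+/- 2 (limma, adjusted p = 0.0135 to 0.0444) and not without the other 5 libraries (limma, adjusted p = 0.0504 to 0.194).

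**Figure D3:**
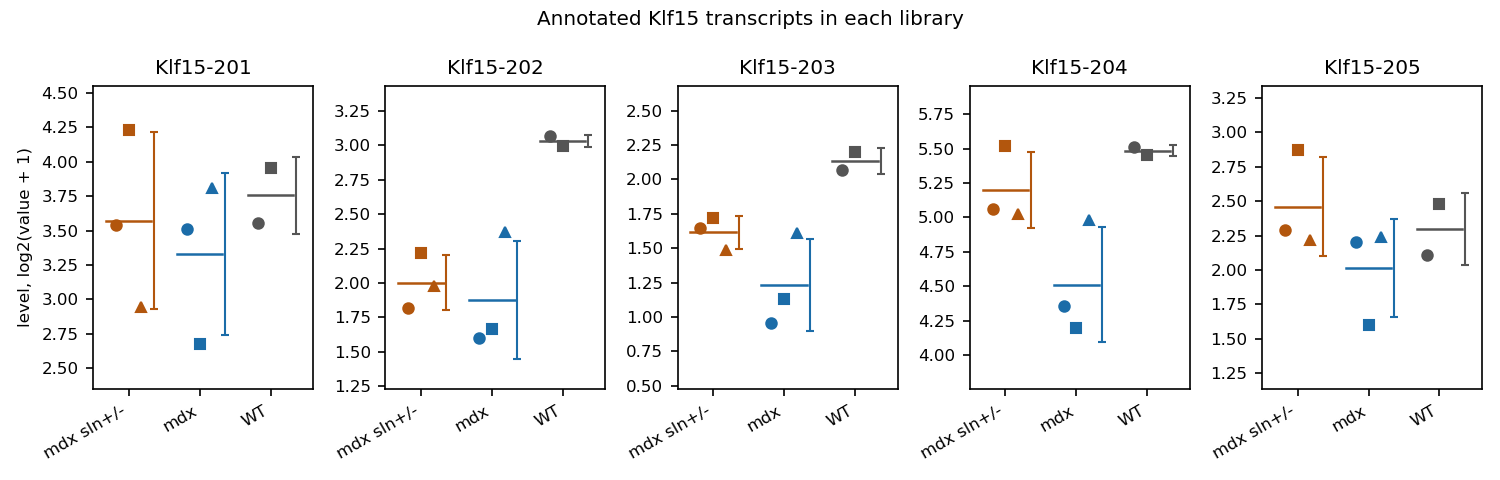
Level of each annotated Klf15 transcript, as log2(value + 1), in each library of mdx sln+/- (n = 3), mdx (n = 3) and WT (n = 2); circles, squares and triangles are libraries 1, 2 and 3, lines are group means and bars 1 SD. Klf15-202 lies lower in all 6 mdx and mdx sln+/- libraries (1.60 to 2.37) than in WT (3.00 and 3.06), while Klf15-204 overlaps WT in mdx sln+/- and not in mdx.

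By the root mean square difference of centred log2 profiles over the 8 libraries, the 5 genes nearest to Klf15 were Crem at 0.111, Sesn1 at 0.149, Cth at 0.157, Chac1 at 0.159 and Pde7a at 0.163. Crem encodes a cAMP-responsive transcription factor, Sesn1 a sestrin, Cth cystathionine gamma-lyase, Chac1 a glutathione-degrading enzyme and Pde7a a cAMP phosphodiesterase. All 5 were lowest in mdx 2, as Klf15 was, a likeness for which they were chosen. Of the other 9 genes of the breakdown pathway, Ivd came nearest to Klf15, at 0.380 and rank 1198, and Bcat2 was farthest, at 0.709 and rank 13115. By this measure a gene that varies little can rank ahead of many others, as the steady Bckdk did at 0.440 and rank 4190. The rank of Ivd is thus no sign of a profile like that of Klf15. All these values are descriptions over 8 libraries that share their processing.

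**Figure D4:**
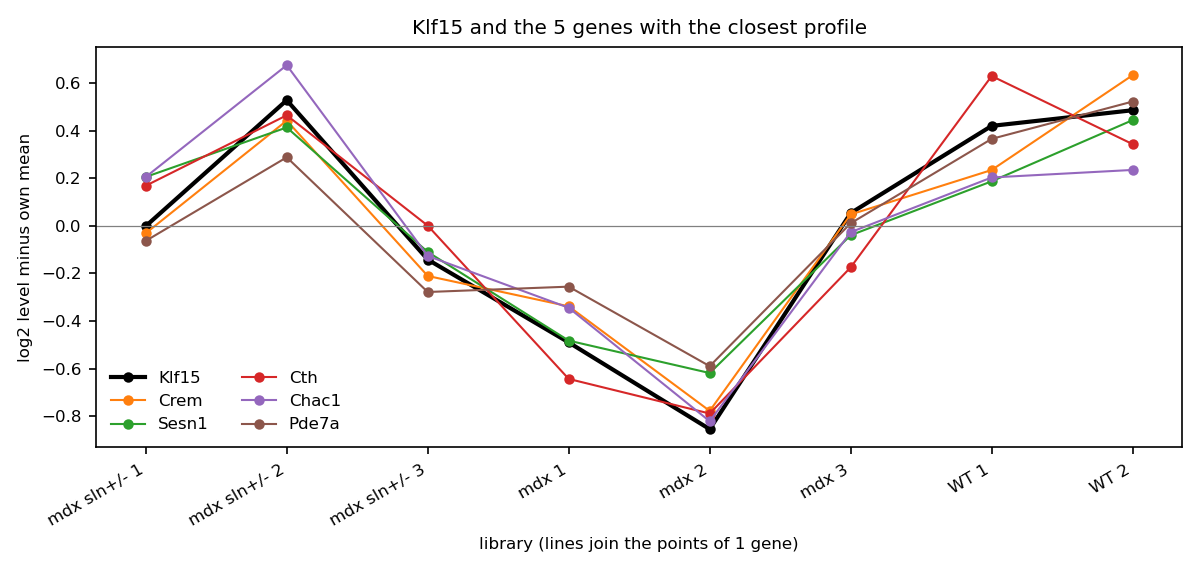
Log2 level minus the gene's own mean over 8 libraries for Klf15 (thick line) and the 5 genes with the closest profile, by library; lines join the points of 1 gene and mark no order in time. All 6 genes are lowest in mdx 2, and mdx sln+/- 2 lies above mdx sln+/- 1 and 3 for each of them. The 5 genes were chosen for their likeness to Klf15, and the removed term ties the values of mdx 2 and mdx sln+/- 2 to each other.

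Taken over the 10 genes, the median log2 difference was -0.16 in mdx against WT, -0.01 in mdx sln+/- against WT and 0.15 in mdx sln+/- against mdx. Over all genes tested the medians were 0.02, 0.05 and 0.03. Of the 10 genes, 8 were lower in mdx than in WT by their fitted value, and 9 were higher in mdx sln+/- than in mdx. Of all 13776 genes, 6466 were lower in mdx than in WT and 8311 were higher in mdx sln+/- than in mdx. Of the 22 genes of the later steps 20, and of 20 other mitochondrial genes 19, were also higher in mdx sln+/- than in mdx. The 2 counts of the 10 genes share the mdx libraries and are not separate observations. The groups did not overlap for 2 genes between mdx and WT (Dbt and Klf15, both lower in mdx; background 51.4%, or 23.6% for lower alone), for 2 between mdx sln+/- and WT (Bckdhb higher, Dbt lower; background 59.8%) and for 4 between mdx sln+/- and mdx (Bckdhb, Bckdk, Ivd and Mccc1, all higher; background 24.8%, or 16.8% for higher alone). The counts against WT lie below their backgrounds, and that of mdx sln+/- against mdx, 4 of 10 in the values as deposited, lies above its own. Its gaps were narrow for Ivd and Mccc1. Ivd was 8.535 in mdx sln+/- 3 and 8.532 in mdx 3, and Mccc1 was 5.553 in mdx sln+/- 3 and 5.541 in mdx 2. The nearest libraries were 6.42 and 6.39 for Bckdk, and 5.19 and 5.10 for Bckdhb. Median-ratio size factors were 1.026 in mdx sln+/- 3, 1.009 in mdx 3 and 0.998 in mdx 2. Division by these factors puts mdx sln+/- 3 below mdx 3 for Ivd and below mdx 2 for Mccc1. Both gaps are thus lost, and the count of 4 depends on the scaling. Whether the gaps of Bckdk and Bckdhb hold after it was not tested. No test of the 10 genes as a list was made.

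A single library carried much of the lower values. mdx 1 was the lowest of 8 libraries for Bckdhb, Dbt, Bckdk, Ppm1k, Ivd and Mccc2, 6 of the 10 genes, and highest for Bcat2. The same 6 were lowest there after median-ratio scaling. mdx 1 was the lowest library for 22.8% of all genes as deposited and for 19.2% after scaling, and its summed abundance was the lowest. WT 1 was the highest library for Dbt, Bckdk, Ivd and Mccc2. Without mdx 1 no gene of the 10 passed in any comparison, and Klf15 differed by -0.83 between mdx and WT.

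The later steps were represented by 22 tested genes of 23 listed symbols (Mmut had no row). Of the 22, 3 fell and 0 rose in mdx against WT, with a median of -0.07. That count is near the share of all genes that passed, 15.1% in this comparison. The background for this list and those below is 15.1% in mdx against WT and 15.9% in mdx sln+/- against WT. The largest fall was that of Mut, which encodes methylmalonyl-CoA mutase, the vitamin B12 enzyme at the end of the isoleucine and valine branches. Mut was 6.53, 6.49 and 6.64 in mdx sln+/-, 6.19, 6.46 and 6.55 in mdx, and 7.22 and 7.29 in WT, so both mdx groups lay below WT without overlap. It fell by 0.85 ± 0.12 in mdx (limma, adjusted p = 0.00773), a call that held with each single library left out. In mdx sln+/- it fell by 0.70 ± 0.12 (limma, adjusted p = 0.0125), and did not pass without WT 2 or without mdx sln+/- 1 (limma, adjusted p = 0.0684 and 0.0667). Without both mdx sln+/- 3 and WT 2, Mut did not pass in mdx sln+/- or in mdx (limma, adjusted p = 0.144 and 0.0808).

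Acadsb, the short/branched-chain acyl-CoA dehydrogenase of the isoleucine branch, was 6.87, 6.88 and 6.87 in mdx sln+/-, 6.69, 6.72 and 6.78 in mdx, and 7.02 and 7.09 in WT. The groups did not overlap, with mdx lowest and WT highest, and the fall in mdx was 0.32 ± 0.07 (limma, adjusted p = 0.0213). It did not pass without WT 2, mdx 1 or mdx sln+/- 1 (limma, adjusted p = 0.0563 to 0.0931). Aldh6a1, methylmalonate semialdehyde dehydrogenase of the valine branch, fell by 0.53 ± 0.14 in mdx (limma, adjusted p = 0.0490). That call ended when any single library other than mdx 1 or mdx 3 was left out (limma, adjusted p = 0.0539 to 0.150).

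In mdx sln+/- against WT, 2 of the 22 later genes rose and 1, Mut, fell, where 15.9% of all genes passed. Auh, the hydratase of the leucine branch, was among those that rose, by 0.36 ± 0.09 (limma, adjusted p = 0.0353). The call of Auh ended without any single library other than WT 2 or mdx 1 (limma, adjusted p = 0.0522 to 0.137). After median-ratio scaling 0 of the 22 rose, and Auh had a limma adjusted p of 0.0588. In mdx sln+/- against mdx the count was 0 of 22.

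Uptake and cytosolic transamination were represented by 6 tested genes of 7 listed, of which 2 fell in mdx and 3 in mdx sln+/- against WT, and 0 rose. Slc43a2, which encodes the L-type transporter LAT4, was 3.92, 3.95 and 3.78 in mdx sln+/-, 4.17, 3.91 and 3.85 in mdx, and 5.30 and 4.81 in WT. Both mdx groups lay below WT, by 1.17 ± 0.17 in mdx sln+/- (limma, adjusted p = 0.00817) and 1.08 ± 0.17 in mdx (limma, adjusted p = 0.0108), and both calls held with each single library left out. Without both mdx sln+/- 3 and WT 2 the call in mdx sln+/- ended (limma, adjusted p = 0.0623). Slc3a2, the heavy chain shared by several amino acid transporters, fell by 0.69 ± 0.12 in mdx sln+/- (limma, adjusted p = 0.015) and 0.58 ± 0.12 in mdx (limma, adjusted p = 0.0245). Its calls ended without WT 2 or mdx sln+/- 1 in both comparisons, and also without mdx sln+/- 3 in mdx sln+/- and without mdx 1 in mdx (limma, adjusted p = 0.0513 to 0.110). The light chain Slc7a8 fell by 0.68 ± 0.17 in mdx sln+/- (limma, adjusted p = 0.0394) and was called without mdx 1, mdx 3 or WT 1 and not without the other 5 libraries (limma, adjusted p = 0.0698 to 0.169). Slc25a44, the mitochondrial carrier of these amino acids, and the cytosolic transaminase Bcat1 differed by -0.09 ± 0.10 and 0.08 ± 0.12 in mdx against WT, and neither passed.

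**Figure D5:**
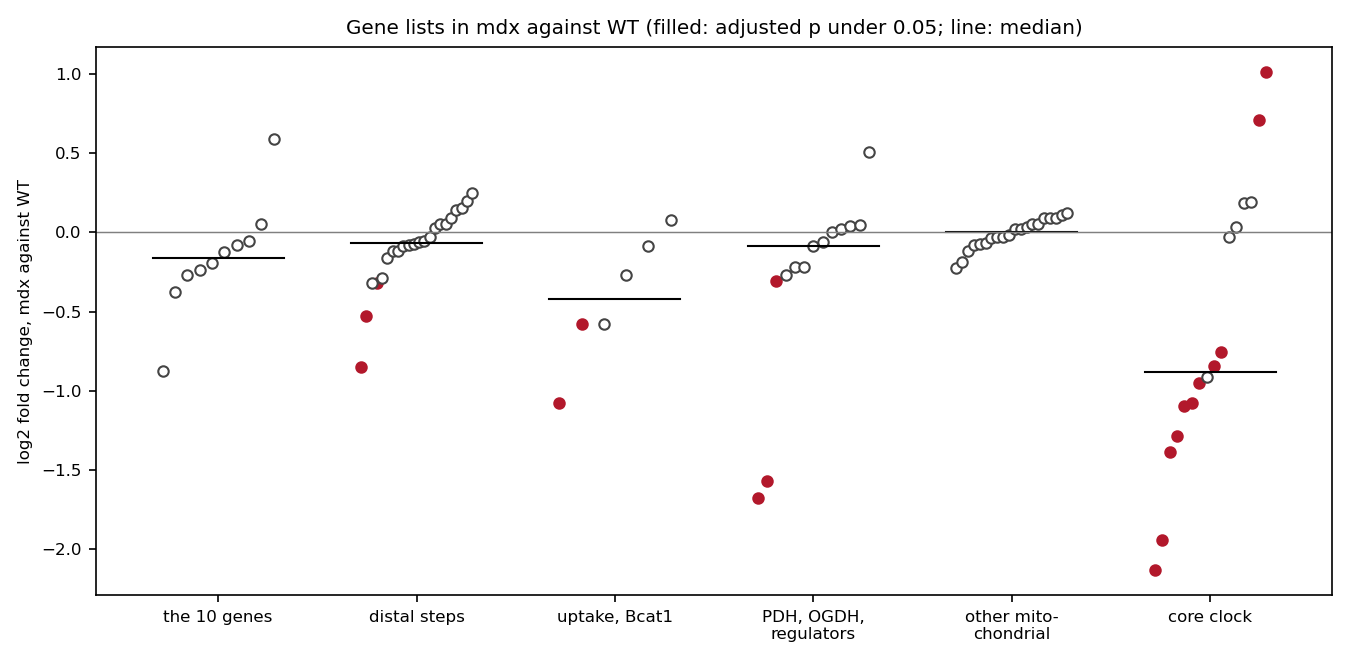
Log2 fold change in mdx against WT of each tested gene of 6 lists, each point a gene, ordered by value within its list. Filled points passed the limma threshold of adjusted p under 0.05 and lines are list medians; none of the 10 genes is filled, 3 of 22 later-step genes and 2 of 6 uptake genes are, and the clock list has a median of -0.88.

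The sister complexes of BCKDH, pyruvate and 2-oxoglutarate dehydrogenase, and their regulators gave 13 tested genes, of which 3 fell and 0 rose in mdx against WT. None of the 3 encodes a catalytic subunit of either dehydrogenase complex. The pyruvate dehydrogenase phosphatase Pdp2 was 4.26, 4.66 and 4.34 in mdx sln+/-, 3.99, 3.79 and 4.33 in mdx, and 5.77 and 5.66 in WT, far below WT in both mdx groups. It fell by 1.30 ± 0.19 in mdx sln+/- (limma, adjusted p = 0.00791) and 1.68 ± 0.19 in mdx (limma, adjusted p = 0.00447), and each call held with any single library left out. Neither held without both mdx sln+/- 3 and WT 2 (limma, adjusted p = 0.125 in mdx sln+/- and 0.0599 in mdx). The kinase Pdk4 fell by 1.57 ± 0.41 in mdx (limma, adjusted p = 0.0438), a call that ended without WT 1, WT 2, mdx 1, mdx sln+/- 1 or mdx sln+/- 3 (limma, adjusted p = 0.0557 to 0.192). The phosphatase regulator Pdpr fell by 0.49 ± 0.08 in mdx sln+/- and 0.31 ± 0.08 in mdx (limma, adjusted p = 0.0107 and 0.0432). Its call in mdx ended without WT 1, WT 2, mdx 1, mdx 3 or mdx sln+/- 1 (limma, adjusted p = 0.0934 to 0.119), and that in mdx sln+/- without mdx sln+/- 1 (limma, adjusted p = 0.0712). Pdp1, the other phosphatase, rose by 0.78 ± 0.18 in mdx sln+/- (limma, adjusted p = 0.0305), but not without WT 1, WT 2, mdx sln+/- 1 or mdx sln+/- 3 (limma, adjusted p = 0.0906 to 0.118).

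Among 14 genes tied to Klf15 or to the glucocorticoid receptor in other work, 3 fell and 1 rose in mdx, and 3 fell and 1 rose in mdx sln+/-, against WT. Those that fell were the cytosolic aspartate aminotransferase Got1, the clock gene Per1 and the factor Klf9, and the receptor Nr3c1 rose, though not in mdx after median-ratio scaling. Got1 was 9.26, 9.14 and 9.22 in mdx sln+/-, 9.19, 9.38 and 9.38 in mdx, and 9.95 and 9.99 in WT, and its fall of 0.76 ± 0.09 in mdx sln+/- and 0.65 ± 0.09 in mdx (limma, adjusted p = 0.00581 and 0.00802) held with any single library left out. Without both mdx sln+/- 3 and WT 2 it did not pass in either (limma, adjusted p = 0.113 in mdx sln+/- and 0.0972 in mdx). Per1 fell by 0.45 ± 0.08 in mdx sln+/- (limma, adjusted p = 0.0165) and 0.85 ± 0.08 in mdx (limma, adjusted p = 0.00314), and the call in mdx sln+/- ended without WT 1 or mdx sln+/- 1 (limma, adjusted p = 0.0544 to 0.0994). Klf9 fell by 0.60 ± 0.16 in mdx sln+/- and 0.77 ± 0.16 in mdx (limma, adjusted p = 0.0434 and 0.0213). Its call ended in mdx sln+/- without WT 1, WT 2, mdx 1, mdx sln+/- 1 or mdx sln+/- 3, and in mdx without WT 2 or mdx 1 (limma, adjusted p = 0.0528 to 0.187). Nr3c1 rose by 0.56 ± 0.12 in mdx sln+/- and 0.45 ± 0.12 in mdx (limma, adjusted p = 0.024 and 0.0458). Its call ended in mdx sln+/- without WT 1, WT 2, mdx sln+/- 1 or mdx sln+/- 3, and in mdx without any library other than mdx sln+/- 3 (limma, adjusted p = 0.0573 to 0.136). Kcnip2, a potassium channel subunit that depends on Klf15 in mouse heart, differed by 0.42 ± 0.13 in mdx sln+/- and 0.08 ± 0.13 in mdx against WT and did not pass (limma, adjusted p = 0.0701 and 0.725).

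Among 16 core clock genes, 9 fell and 2 rose in mdx against WT, with a median of -0.88, and 8 fell and 2 rose in mdx sln+/- against WT, with a median of -0.63. Cry2, a clock repressor, was 4.81, 4.79 and 4.77 in mdx sln+/-, 4.78, 4.75 and 4.72 in mdx, and 5.70 and 5.71 in WT. Klf15 is known to follow the clock in mouse heart, the hour of tissue collection is not in the labels, and its part in the values of Klf15 was not tested. Without both libraries low in Y-linked genes, mdx sln+/- 3 and WT 2, 5 clock genes fell in mdx and 0 in mdx sln+/-, and Klf15 differed by -0.80 in mdx and -0.09 in mdx sln+/- against WT. Over all genes 126 passed in mdx and 39 in mdx sln+/- without those libraries. Cry2 in mdx sln+/- against WT differed by -0.90 there and -0.92 with all libraries, Dbp by -1.90 and -1.70, and Nr1d2 by -0.75 and -0.90.

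Of 20 other mitochondrial genes, of the citric acid cycle, the respiratory chain and mitochondrial upkeep, 0 passed in any of the 3 comparisons, and the medians were 0.06 in mdx sln+/- against WT, 0.00 in mdx against WT and 0.08 in mdx sln+/- against mdx. Cardiomyocyte markers were present in all libraries, with sums of 53270 to 55901 in mdx sln+/-, 50257 to 56287 in mdx and 47777 to 49584 in WT; of 14 none fell and 1, Nppa, rose in mdx, though not without WT 2, mdx 1, mdx 3 or mdx sln+/- 1 (limma, adjusted p = 0.0633 to 0.159). Of 14 macrophage markers 4 rose in each mdx group against WT, and the summed abundance of the 14 was 344 to 412 in mdx sln+/-, 335 to 426 in mdx and 271 to 279 in WT. By fitted value 12 of the 14 were higher and 2 lower than in WT in each mdx group. The 2 lower ones did not overlap WT, and the lowest difference was -0.53 in mdx sln+/- and -0.80 in mdx. In mdx the call of Itgam ended without WT 1, WT 2, mdx 1 or mdx sln+/- 1, that of Adgre1 without WT 1 or WT 2 and that of Lyz2 without WT 1. The call of Adgre1 in mdx sln+/- ended without WT 2, mdx sln+/- 1 or mdx sln+/- 3 and that of Lyz2 without mdx sln+/- 1 (limma, adjusted p = 0.0504 to 0.118 over these fits). Of 10 fibroblast markers 1, Col1a1, rose in each, though not without WT 1, WT 2, mdx sln+/- 1 or mdx sln+/- 3 (limma, adjusted p = 0.0529 to 0.123) nor, in mdx sln+/-, without mdx 2 or mdx sln+/- 2, with sums of 942 to 1038 in mdx sln+/-, 971 to 1181 in mdx and 799 to 1007 in WT. The adipocyte markers Adipoq, Plin1, Cidec, Lep, Retn and Cfd were not analysed here. The part of cell makeup in the values of the 10 genes was not tested.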

How the data were processed

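The authors deposited 1 log2 value per transcript in each of 16 columns, named r1 and r2 within every library. The authors aligned reads to mm10 with STAR 2.6.1 and used Partek and limma, per the submitters' processing notes; the order, the quantifier's settings and the normalization are not given in the sources used here. That the log2 values are log2(abundance + 1) was inferred from the values, none of which lies at or below 0.

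The r1 and r2 values were averaged and made linear, the transcripts of a gene were added up, and the sum was taken as log2(value + 1). A gene was tested if at least 2 libraries reached a value of 1, with limma 3.58.1 in R 4.3.3, with group and the removed term as covariates, all 8 libraries, a prior that follows mean expression and Benjamini-Hochberg adjustment at 0.05 for each comparison; 4 residual degrees of freedom and, in the median, 3.36 prior ones were left. Fold changes on this scale understate the change of low genes. The fit was tested on simulated data first. The design was written for counts or normalized values, and limma was used because the values are not counts.

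The 10 genes and all lists were chosen with earlier results of these data known. Named genes are the 10, Dmd, the 3 genes with the smallest adjusted p in mdx against WT of each list, and the 5 nearest to Klf15; any further gene was picked with its values known. The values of 1 gene of the later steps are not reported here. The other lists were later breakdown steps, uptake, other dehydrogenases, Klf15-linked genes, Krüppel-like factors, clock, mitochondrial genes and markers of cardiomyocytes, macrophages, fibroblasts, endothelium, mural cells, adipocytes, blood, skeletal muscle and atria. Positions are GENCODE M21 and promoters RefSeq. Python 3.11.15, pandas 2.3.3, numpy 2.4.6 and matplotlib 3.10.9 prepared values and figures. Alternatives were other scalings, filters, pseudocounts and columns, the highest transcript, group-only and 2-group fits, the replicate block, the style of library names in the file header as a term, and left-out libraries.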

Additional observations from a re-analysis of the deposited data

How the results depend on the processing

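The count of the 10 genes that passed, 0 in each comparison, moved to 1 in mdx against WT with the group-only fit and with the highest transcript (Klf15), and to 1 in mdx sln+/- against WT with those 2 groups fitted alone (Klf15). With 1 library left out it ranged over 0 to 1 in both comparisons with WT and stayed at 0 in mdx sln+/- against mdx. The member transcripts that passed, 3 in mdx against WT and 2 in mdx sln+/- against WT, numbered 6 (2 higher, 4 lower) and 4 (2 higher, 2 lower) with the group-only fit, 0 and 0 with the name style as a term or without mdx sln+/- 3 and WT 2, and 0 to 5 in both with 1 library left out. Each 5 came without WT 1, with 4 higher and 1 lower in mdx and 5 higher and 0 lower in mdx sln+/-; all other calls with 1 library left out were lower. Leaving out mdx 2 or mdx sln+/- 2, or fitting 1 mdx group with WT alone, drops the remaining replicate 2 library of the mdx groups, since the removed term then takes it up. Over all genes, 2080 passed in mdx against WT and 2191 in mdx sln+/- against WT. These counts were 3797 and 3994 with the group-only fit, which takes 1 residual degree of freedom too many, 575 to 1819 and 316 to 2408 with 1 library left out, 126 and 39 without mdx sln+/- 3 and WT 2, and 545 in mdx against WT with 2 groups fitted. Median-ratio scaling gave 1010 higher and 1094 lower genes in mdx against WT, where 1123 and 957 were called without it, and 931 and 1136 in mdx sln+/- against WT, where 1296 and 895 were. The cause was not tested. Among the named genes no called direction turned round.

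The deviations of same-numbered libraries correlated at -0.264 for mdx sln+/- 1 with mdx 1, -0.996 for mdx sln+/- 2 with mdx 2, a value set by the removed term, and -0.311 for mdx sln+/- 3 with mdx 3. With WT the values were -0.00427 for mdx sln+/- 1, -0.18 for mdx sln+/- 2, 0.148 for mdx 1 and 0.18 for mdx 2. A rule that every pair lie above 0.1 could not be met, since the removed term sets the value of mdx sln+/- 2 with mdx 2. The other pairs are not free of it, because deviations sum to 0 within a group. These correlations therefore cannot decide whether the numbers pair the samples. The main fit did not pair them. With the replicate block, 0 of the 10 genes passed in each comparison, and 54, 74 and 0 genes passed in mdx against WT, mdx sln+/- against WT and mdx sln+/- against mdx. With the block, Pdp2 (limma, adjusted p = 0.0816 in mdx sln+/- and 0.0639 in mdx), Mut (0.0711 and 0.0583) and Got1 (0.0733 and 0.0872) did not pass against WT. Depth is unknown, and with 2 WT libraries 1 library can set a difference, as WT 2 does for Bcat2.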

Other observations

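Among 11 tested Krüppel-like factors, the family of Klf15, 2 rose and 1 fell in each mdx group against WT. Klf2, a factor of endothelium, was 5.55, 5.35 and 5.42 in mdx sln+/-, 5.40, 5.31 and 4.93 in mdx, and 4.57 and 3.97 in WT, and rose by 1.17 ± 0.21 in mdx sln+/- (limma, adjusted p = 0.0146) and 0.94 ± 0.21 in mdx (limma, adjusted p = 0.028). Klf16 rose by 0.45 ± 0.12 in mdx sln+/- and 0.65 ± 0.12 in mdx (limma, adjusted p = 0.0459 and 0.0167), and Klf9, described above, fell. The rises were not robust to single libraries. In mdx they ended without WT 2, mdx 1 or mdx sln+/- 1 for Klf2 and without WT 1 or WT 2 for Klf16 (limma, adjusted p = 0.0528 to 0.120). In mdx sln+/- they ended without WT 2, mdx sln+/- 1 or mdx sln+/- 3 for Klf2, and without any library other than mdx 1 or mdx 3 for Klf16 (limma, adjusted p = 0.0553 to 0.191).

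Markers of other cell types moved as follows against WT. Of 10 endothelial markers 2 rose and 1 fell in mdx and 2 rose in mdx sln+/-; of 8 mural cell markers 2 rose in mdx and 0 in mdx sln+/-; of 4 atrial markers 2 rose in mdx, among them Nppa, which is also a cardiomyocyte marker, and 0 in mdx sln+/-. By fitted value 2 of the 4 atrial markers were higher and 2 lower in mdx than in WT. Their median was -0.19 and their lowest difference -1.88. The calls in these 3 lists ended with single libraries left out. In mdx the rise of Tek ended without each of the 8 libraries in turn, that of Emcn without WT 2 or mdx sln+/- 1, and the fall of Vwf without WT 2, mdx 1, mdx 3 or mdx sln+/- 1 (limma, adjusted p = 0.0506 to 0.192). The rises of Emcn and Tek in mdx sln+/- ended without WT 2, mdx sln+/- 1 or mdx sln+/- 3 (limma, adjusted p = 0.0516 to 0.0757). The mural gene Cspg4 passed in mdx only with all libraries or without mdx 3, and Notch3 only with all libraries or without mdx 2 or mdx sln+/- 2, among the fits that left out at most 1 library (limma, adjusted p = 0.0603 to 0.186 where they did not pass). The atrial gene Gja5 passed in mdx with all libraries and without mdx 2 or mdx sln+/- 2, and not without the other 6 (limma, adjusted p = 0.0529 to 0.0752). Of 2 adipocyte markers Plin4 fell in both, though not without WT 2 in either, mdx 1 in mdx, or mdx sln+/- 1 or 3 in mdx sln+/- (limma, adjusted p = 0.0635 to 0.113), and of 5 blood markers and 1 skeletal muscle marker 0 passed.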
